A study of Sus scrofa with 20 samples.

Results

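Transcripts of cytochrome P450 enzymes, sulfotransferases and glutathione S-transferases were examined in the caecal mucosa of 20 pigs. Members were all array probesets whose platform gene symbol belongs to the CYP, UGT, SULT or GST families, without the sterol demethylase CYP51, and each gene was represented by its probeset with the highest mean over the pigs. Values were present for 38 genes with 71 probesets, out of 10638 gene symbols and 25092 probesets with values in the series. These genes comprised 12 of the families CYP1 to CYP3, 3 of the family CYP4, 13 other cytochrome P450 genes, 3 SULT and 7 GST genes. The platform lists 43 such symbols with 89 probesets, and CYP1A2, CYP4F2, SULT1E1, SULT2A1 and UGT8 were not analysed here. No probeset with a UGT symbol was thus among the members. Of the 25092 probesets with values, 8731 carry no symbol and could not be assigned to a family.

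Cytochrome P450 enzymes insert oxygen into lipophilic compounds, the microsomal ones with electrons that P450 oxidoreductase passes on from NADPH. The families CYP1 to CYP3 act mainly on drugs, plant compounds and other foreign substances, CYP4 enzymes on fatty acids, and the remaining families on steroids, bile acids, vitamin D and retinoic acid. Transferases then attach a water-soluble group, which is sulfate for SULT and glutathione for GST enzymes, and the products leave the cell through efflux transporters. The liver is the main site of this system, and the intestinal epithelium is a further one, best known for its CYP3A enzymes.

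The pigs were a cross of Large White and Landrace and came from 5 litters of the sows 1406, 1410, 1411, 1417 and 1435. Each litter contributed a male and a female of high and a male and a female of low feed efficiency, giving 10 pigs per efficiency group and 10 per sex, with 1 array per pig. High feed efficiency denotes a low residual feed intake (RFI), the share of the feed intake that growth and body composition leave unexplained, and the pigs were the most divergent ones within litter and sex. All groups were fed alike and differed in no treatment. Mucosa was scraped from the blind end of the caecum. Littermates were penned together, so that a difference between litters cannot be told apart from one between pens, and slaughter batch was not analysed here. Values are log2 units of the robust multichip average (RMA), in which a difference of 1 is a doubling. The upper quartile of all probesets lay between 6.25 and 6.30 on every array, and the correlation between arrays was 0.94 to 0.97 across probesets, which are not independent replicates. The epithelial genes KRT8 and KRT19 were bright, at means of 12.3 and 12.6, whereas the 6 hepatocyte genes on the list of absent markers were at 1.60 (FGB), 2.47 (ALB), 3.76 (SERPINA1), 4.33 (TTR), 4.86 (APOA1) and 5.72 (HP). Of the ileal absorptive cell markers LCT was at 3.26, SLC10A2 at 4.52, FABP6 at 5.80 and APOA4 at 6.78, so that the latter 2 were above the median of all probesets, 4.77, although the list was made as one of genes absent from caecum. Precision is limited by the 20 arrays.

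The level of each member was described first. Because the brightness of a probeset also depends on its probes, levels of different genes do not give an order of transcript amounts. The means of the members ranged from 1.56 to 7.78 with a median of 3.65, and 20 of the 38 genes lay below 4.77, the median of all probesets. Just 6 exceeded the upper quartile of probeset means, 6.24. Means of CYP2C34 (1.56) and the gonadal aromatase CYP19A1 (1.59) lay under 1.62, the 5% quantile below which probesets were not tested.

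Among the drug-oxidising families the brightest probeset was that of CYP3A29, a porcine member of the CYP3A subfamily, at 6738502 to 6778121 on chromosome 3 of Sscrofa11.1. It was measured at 7.78 ± 0.55 (SD, n = 20) and ranged from 6.87 to 8.69 across pigs. The neighbouring CYP3A46, from 6677911 to 6709855, had a mean of 6.30 ± 0.99. CYP2A19, the pig counterpart of the enzyme that oxidises coumarin and nicotine in humans, was at 5.85 ± 0.43. Of this group 8 of 12 genes were below the median of all probesets, among them CYP1A1 at 2.99, which is the classical target gene of the aryl hydrocarbon receptor, and the ethanol-oxidising CYP2E1 at 2.93. In the CYP4 family the fatty acid hydroxylases CYP4V2 (5.89 ± 0.44) and CYP4A24 (5.45 ± 0.80) exceeded that median, and CYP4A21, which takes part in bile acid synthesis in pigs, did not (3.54 ± 0.26).

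The other P450 genes were mostly dim, with 10 of 13 below the median of all probesets. The orphan enzyme CYP20A1 (6.43 ± 0.29), the mitochondrial hydroxylase of sterols and vitamin D CYP27A1 (5.38 ± 0.39) and the steroid hydroxylase CYP21A2 (4.94 ± 0.997) were the brightest of them. CYP7A1, the rate-limiting enzyme of bile acid synthesis in the liver, had a mean of 3.69. All 7 GST genes lay above the median of all probesets. GSTK1, a transferase of mitochondria and peroxisomes, was at 7.75 ± 0.24, GSTO1 at 7.27 ± 0.29 and GSTZ1, which also acts in tyrosine breakdown, at 7.09 ± 0.30. Of the sulfotransferases, SULT4A1 (5.02 ± 0.27) and the phenol sulfotransferase SULT1A1 (5.01 ± 0.44) were above it and SULT2B1, which acts on cholesterol and hydroxysteroids, was below it (3.61 ± 0.27).

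**Figure D1:**
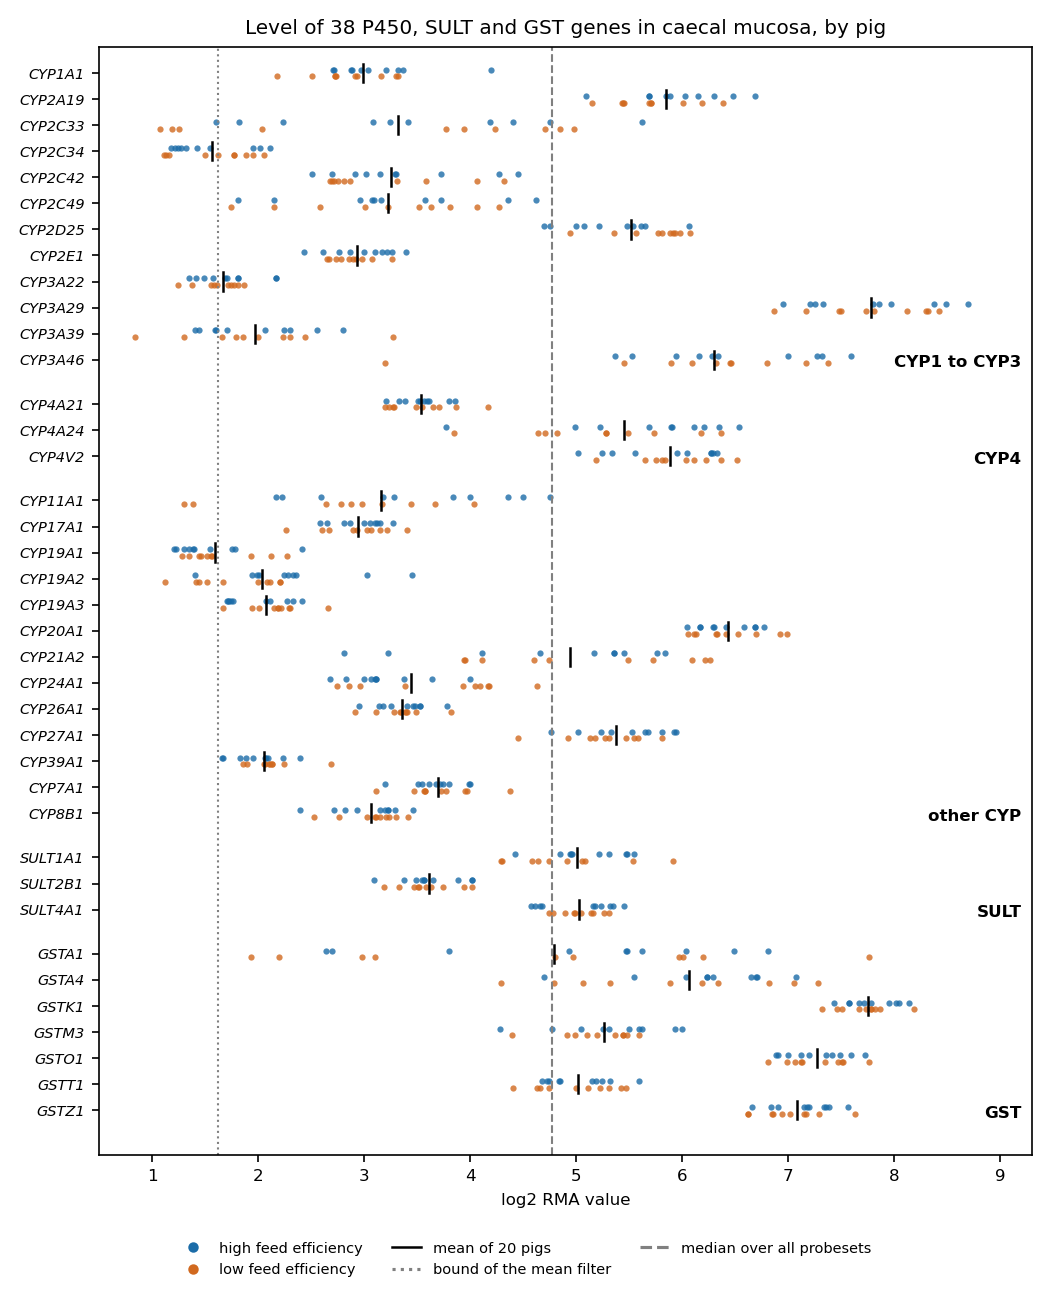
Log2 RMA values (x axis) of the 38 genes (y axis, grouped by family), with 1 point per pig coloured by efficiency group, a black bar at the mean of 20 pigs, a dotted line at 1.62 and a dashed line at 4.77. GSTA1 and CYP2C33 have the widest spread, and the points of both efficiency groups overlap in every gene.

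Members varied more between pigs than the typical probeset, with a median SD of 0.41 against 0.30 over all probesets. The SD was highest for GSTA1, a glutathione transferase of the alpha class, at 1.70, with pigs between 1.94 and 7.76. It was 1.45 for CYP2C33, with pigs between 1.07 and 5.62, and 0.997 for CYP21A2, with pigs between 2.80 and 6.26. In CYP21A2, values identical to 4 decimals occurred in 2 pairs of pigs, which was otherwise seen among the members for 1 pair in CYP3A39.

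Probesets of the same gene did not always vary together. Across the 20 pigs the median Pearson correlation over 56 pairs of such probesets was 0.27, from -0.30 to 0.89, and 14 of the 56 pairs passed an adjusted p under 0.05 by a permutation test on Pearson's r and 12 on Spearman's rho. These permutations took no account of litter, so shared litter differences also count in them. Of the 9 pairs in which both probesets reached the median level, 7 passed on each measure, with a median r of 0.73, and 6 of the 9 belong to CYP3A29. In addition, 18 of the 38 probesets used are of the types that the array design marks as sharing sequence with other transcripts, 9 of them among the 12 genes of CYP1 to CYP3, so that near-identical family members may contribute to these values. The platform symbol CYP3A39 corresponds to the same RefSeq gene as CYP3A46, GSTT1 to LOC100153094 and SULT1A1 to SULT1A3. Over 17 pairs of gene symbols of the same subfamily 0 passed the adjustment. By Pearson's r the relation closest to it was that of CYP3A29 with CYP3A46 (r = 0.58, permutation p = 0.0044, adjusted p = 0.075; rho = 0.55, permutation p = 0.013, adjusted p = 0.11). This r was 0.65 after values were centred on their litter and 0.37 without the 2 pigs farthest from the median of CYP3A29. By Spearman's rho the closest was CYP3A39 with CYP3A46, symbols of the same RefSeq gene (rho = 0.62, permutation p = 0.0045, adjusted p = 0.077; r = 0.51, adjusted p = 0.19).

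Differences between the sows' litters were tested next. None of the 36 members past the level bound differed between litters after adjustment by limma's moderated F test (smallest adjusted p = 0.214), compared with 30 of 23837 probesets or 0.126% in the series. At an unadjusted p under 0.05 there were 5 members or 13.9%, against 16.1% of all probesets. The share of variance that lay between litters had a median of 23.2% over all 38 members, 26.9% over all probesets and 27.4% over those past the bound. By family this median was 35.9% for GST, 28.5% for the other P450 genes, 27.7% for SULT, 18.4% for CYP1 to CYP3 and 7.58% for CYP4 genes. The share is not corrected for the number of litters, so it lies well above 0 even where litters do not differ.

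GSTA1, on chromosome 7 from 46538743 to 46550781, had the smallest p of the members in this test (p = 0.0124). In the litter of sow 1410 it was measured at 2.64, 2.70, 2.97 and 2.19. Littermates of sow 1411 were at 5.48, 6.81, 6.01 and 4.97, and those of sow 1435 at 5.62, 5.47, 5.97 and 6.19. The litter of 1417 was spread widely, at 3.80, 6.49, 7.76 and 3.10, and that of 1406 was at 6.03, 4.93, 1.94 and 4.80. No pig of 1411, 1417 or 1435 reached down to the range of 1410, and 1 pig of 1406 lay below it. The litter of 1410 has the lowest mean in these same values, so this separation is a description and no test. Against the mean of the other litters the 1410 litter differed by -2.71 ± 0.70 (SE) on the log2 scale, with an adjusted p of 0.517 (limma). The related GSTA4, which detoxifies lipid peroxidation products, was lowest in the litter of 1411 (5.35 ± 0.71, SD) and highest in that of 1406 (6.78 ± 0.35).

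GSTO1 and GSTK1 shared an order of litters in which 1406 was highest and 1435 lowest. For GSTO1, on chromosome 14 from 115206434 to 115216624, the 4 pigs of 1435 were at 6.99, 7.12, 6.81 and 6.99, and the 4 pigs of 1406 at 7.49, 7.72, 7.47 and 7.34, without overlap. The contrast of 1435 with the other litters was -0.36 ± 0.14 (SE, adjusted p = 0.217). A further, unused probeset of GSTO1 differed in the same direction by -0.11 ± 0.14. For GSTK1, on chromosome 18 from 6992623 to 6999068, the litter of 1435 was measured at 7.57, 7.43, 7.66 and 7.32 and that of 1406 at 8.05, 7.95, 7.79 and 8.19, again without overlap (contrast of 1435: -0.32 ± 0.12 SE, adjusted p = 0.215). For GSTO1, GSTK1, CYP17A1 and CYP3A46 the litters set side by side have the highest and lowest means in these same values. Their lack of overlap is therefore a description and no test.

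CYP17A1, a hydroxylase of steroid hormone synthesis located on chromosome 14 from 113805616 to 113820445, is dim in this tissue. In the litter of 1435 it was at 2.65, 2.81, 2.60 and 2.26, and in that of 1410 at 3.12, 3.15, 3.41 and 3.03. These litters did not overlap with each other, although pigs of 1411 and 1417 reached down to 2.58 and 2.67. The contrast of 1435 was -0.45 ± 0.13 (SE), and its adjusted p of 0.144 was the smallest of any member in any litter contrast. CYP2C42 was uniformly low in the litters of 1435 (2.70, 2.51, 2.81 and 2.71) and 1411 (3.02, 2.92, 2.70 and 2.68) and spread from 2.76 to 4.45 over the other litters. Its contrast of 1435 was -0.72 ± 0.27 (SE, adjusted p = 0.213), and its second probeset gave -0.56 ± 0.35.

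CYP3A46 had an opposite order. It was lowest in the litter of 1406, with values of 6.33, 5.37, 5.89 and 3.19, and highest in that of 1435, at 7.27, 7.59, 6.45 and 6.46. Litters 1406 and 1435 did not overlap, but 1 pig at 3.19 set much of the distance, which was -1.38 ± 0.44 (SE, adjusted p = 0.198) for 1406 against the others. Of the 3 dimmer CYP3A46 probesets past the level bound, 2 were also lower in 1406, by -0.34 ± 0.33 and -0.15 ± 0.35, and 1 was higher, by 0.31 ± 0.21. SULT4A1, a sulfotransferase best known from the brain, had means of 5.24 ± 0.05 (SD) in 1406 and 4.76 ± 0.20 in 1435. Its contrast of 1435 was -0.33 ± 0.14 (SE, adjusted limma p = 0.241). The dimmer SULT4A1 probesets correlated with the one used at r = -0.02 and 0.43 across pigs. The placental aromatase CYP19A2, which is very dim, had its highest mean in 1410 (2.50 ± 0.65) and its lowest in 1435 (1.66 ± 0.41), where 1 pig was at 2.28 and the other 3 between 1.40 and 1.52. The second CYP19A2 probeset had an unadjusted p of 0.638 in the test of litters, against 0.0696 for the one used.

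**Figure D2:**
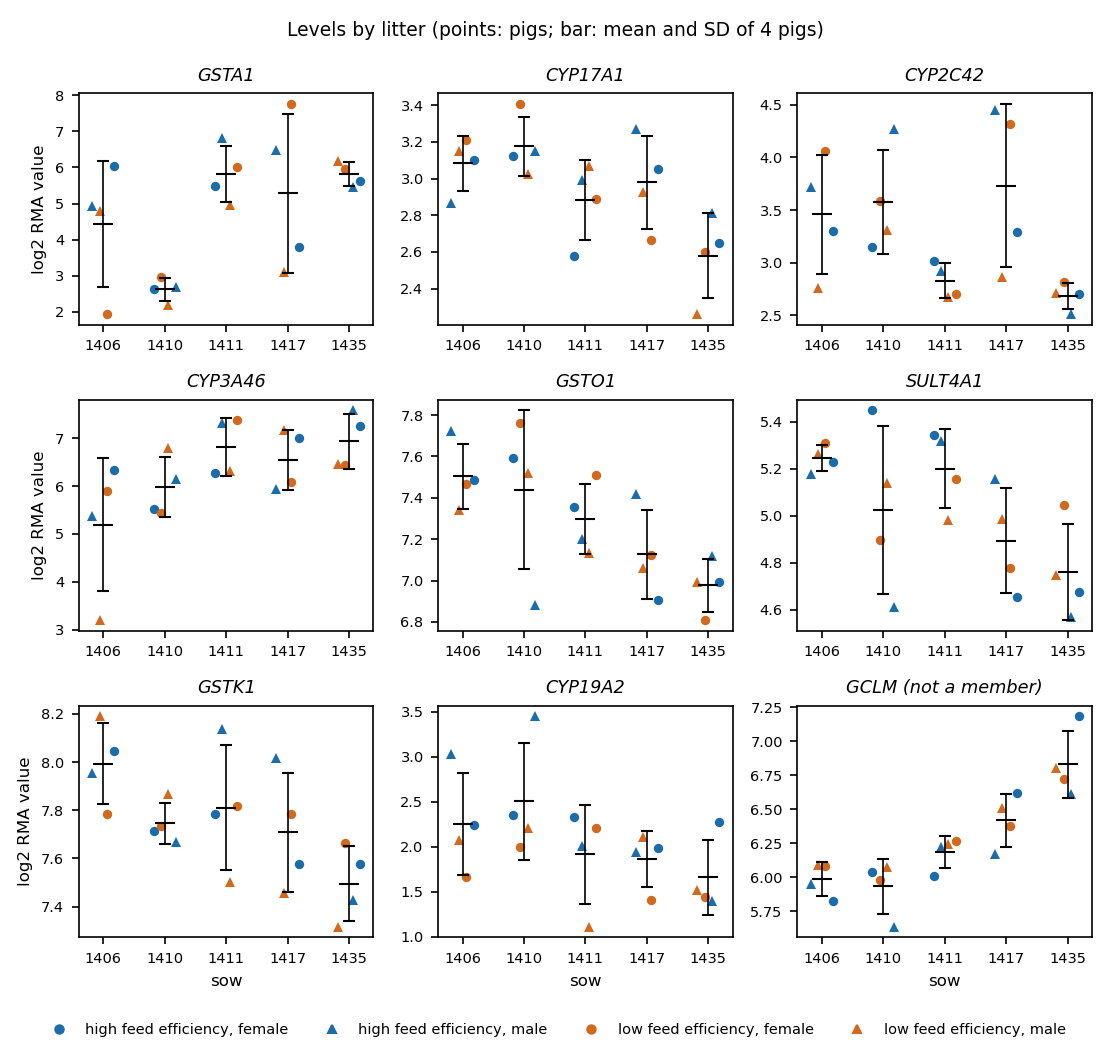
Log2 RMA values (y axis) by sow (x axis) for the 8 members with the smallest p in the test of litters and for GCLM, with 1 point per pig (circles females, triangles males, colour for feed efficiency) and a bar for the mean and SD of 4 pigs. The litter of 1410 is low in GSTA1, that of 1435 is low in GSTO1 and GSTK1 and high in GCLM.

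Each litter was also set against the mean of the other litters. At an adjusted p under 0.05, 0 of 36 members were called in each of the contrasts of 1406, 1410, 1411, 1417 and 1435, where 0.126%, 0.021%, 0.021%, 0.0126% and 0.0461% of all probesets were. At an unadjusted p under 0.05 there were 6 members for 1406 (16.7%, all probesets 15.2%), 4 for 1410 (all 4.99%), 2 for 1411 (5.56%, all 9.85%), 3 for 1417 (8.33%, all 9.01%) and 5 for 1435 (13.9%, all 16.4%). The contrast of 1435 was below 0 for 30 of 36 members or 83.3%, against 57.6% of all probesets, with a median of -0.16 against -0.04. This included 6 of 7 GST, 11 of 12 other P450, 3 of 3 SULT, 8 of 11 CYP1 to CYP3 and 2 of 3 CYP4 genes. GSTA1, CYP3A46 and CYP3A29 were among the few above 0, with values of 1.27, 0.80 and 0.32. Litter 1435 had the lowest mean of the litters in 16 of the 38 members or 42.1%, while it was lowest in 29.4% of all probesets past the bound. In the contrast of 1406, 27 of 36 members were above and 9 below 0, and 42.7% of all probesets were below 0, with a median of 0.12 against 0.05. The litter of 1406 had the highest mean in 12 of 38 members or 31.6%, near the 29.8% of all probesets. These counts are descriptions of the list, since its genes were not drawn independently.

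Scores of 16 marker lists of cell types were compared between these litters as a description, without a test. For each list of markers a score was taken as the mean log2 deviation from the mean of all pigs. The score of general epithelium (5 of 8 genes measured, all above the median of all probesets) was 0.22 in the litter of 1406, with pigs from 0.11 to 0.32, and -0.20 in that of 1435, with pigs from -0.46 to 0.16. Goblet cell markers (4 of 7 measured) were at 0.17 in 1406, with pigs from -0.08 to 0.30, and at -0.30 in 1435, with pigs from -0.89 to 0.24. Markers of mature colonocytes (5 of 12 measured) did not follow this order, at -0.07 in 1406, with pigs from -0.32 to 0.46, and 0.24 in 1435, with pigs from -0.22 to 0.95. B cell markers (4 of 6 measured) were at -0.80 in 1406, with pigs from -1.07 to -0.62, and at 0.40 in 1435, with pigs from -0.26 to 0.89. The ranges of 1406 and 1435 did not overlap in 4 of the 16 lists, which were B cell, T cell (-0.40 to -0.13 and 0.01 to 0.45; 5 of 5 genes measured), plasma cell (-0.07 to 0.45 and -0.36 to -0.14; 2 of 5 measured) and enteroendocrine cell (0.09 to 0.23 and -0.23 to -0.03; 5 of 6 measured). Mean scores were also positive in 1406 and negative in 1435 for the macrophage, smooth muscle, fibroblast, adipocyte and hepatocyte lists. The part of the marker lists in the litter values of the members was not tested. In such bulk samples fewer cells of a type and less RNA per cell cannot be told apart.

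**Figure D3:**
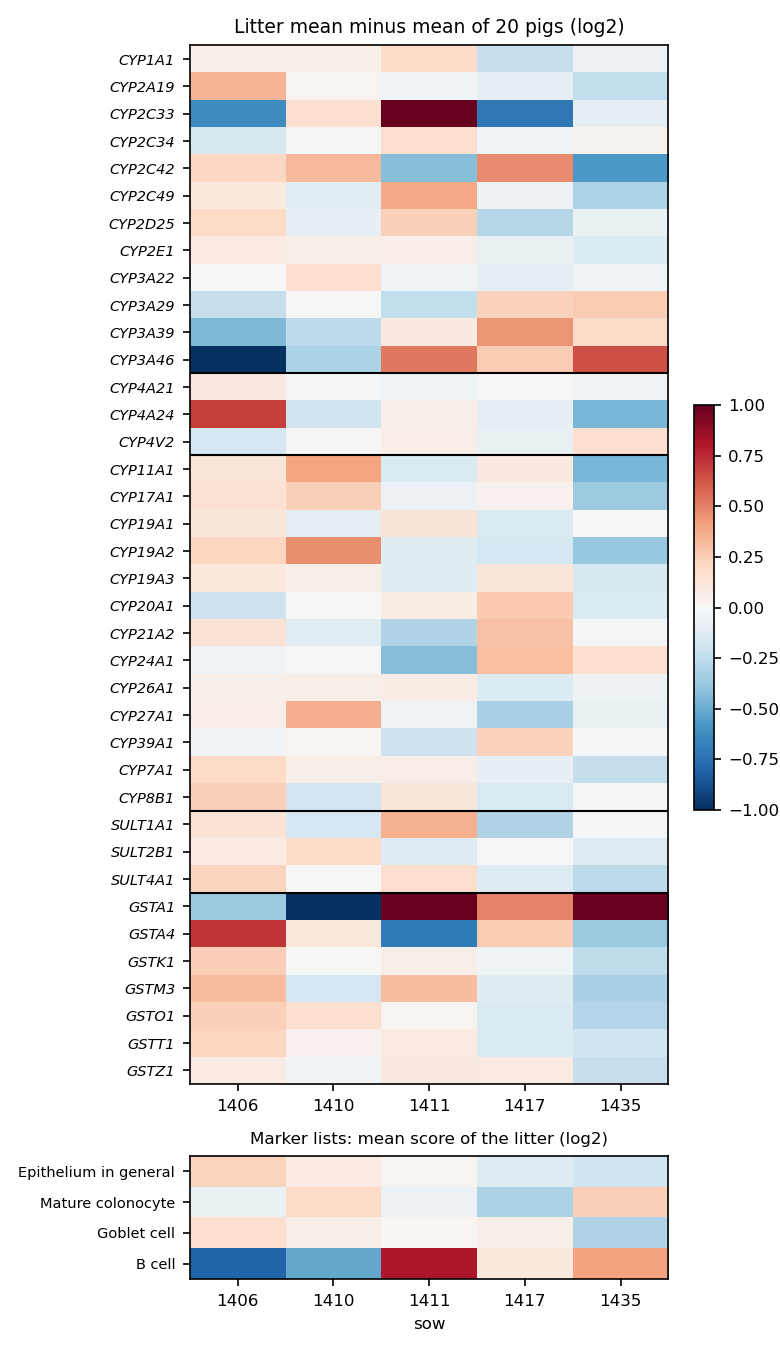
Colour gives the litter mean minus the mean of 20 pigs on the log2 scale, for the 38 genes (rows of the upper panel, black lines separate CYP1 to CYP3, CYP4, other CYP, SULT and GST) and for the scores of 4 marker lists (lower panel), by sow (columns), with the scale ending at 1 and -1. The column of 1435 is below 0 for most GST genes and the column of 1406 above it. The general epithelium and goblet cell lists have the same signs, and the mature colonocyte and B cell lists the opposite ones. Of the lists not drawn, the enteroendocrine, plasma cell, macrophage, smooth muscle, fibroblast, adipocyte and hepatocyte lists also have the same signs. The T cell list has the opposite ones, and the remaining lists do not differ in sign between these litters.

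Genes that supply or regulate this system, without being members, were counted from a list of 66, of which 41 were measured and 40 tested for litter. At an adjusted p under 0.05, 1 of the 40 was called. This was GCLM, the modifier subunit of the enzyme that starts glutathione synthesis (adjusted p = 0.0476, limma). In the litter of 1435 GCLM was measured at 7.18, 6.80, 6.72 and 6.61, and in that of 1406 at 6.09, 5.95, 6.08 and 5.82. All pigs of the litters of 1406, 1410 and 1411 lay below all pigs of 1435, and 1 pig of 1417 at 6.62 reached its range. GCLM is named for its p in these same values and 1435 is its highest litter, so this separation is no test. The contrast of 1435 was 0.70 ± 0.11 (SE, adjusted p = 0.0348). The call rests on all pigs being present, since the adjusted p of the test of litters was under 0.05 in 1 of the 20 fits without 1 pig each and up to 0.126 in the rest, while the contrast stayed between 0.56 and 0.77 with adjusted p-values of 0.0203 to 0.200. With the number that the labels give each pig as a further covariate the adjusted p of the test of litters was 0.572. These numbers run partly with the litters, since all pigs of 1417 and 1435 have higher ones than all other pigs. That fit thus also takes up part of the litter difference and cannot separate litter from pig number. The quinone reductase NQO2 followed with an adjusted p of 0.122 and was lowest in 1435 (6.13 ± 0.15, SD) and highest in 1417 (6.64 ± 0.14). POR, the P450 oxidoreductase on which all microsomal P450 enzymes depend, had means of 7.68 ± 0.45 in 1406 and 6.44 ± 0.75 in 1435 (contrast of 1435: -0.81 ± 0.27 SE, adjusted p = 0.177). At an unadjusted p under 0.05 the test of litters counted 6 of the 40 genes or 15.0%, against 16.1% of all probesets. By role these were 2 of 6 genes of cofactor supply, 2 of 5 efflux transporters (ABCC1 and ABCG2), 1 of 5 electron donors and hydrolases, 1 of 16 other redox and conjugating enzymes and 0 of 8 receptors and regulators.

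The comparison of feed efficiency asked whether the members differed between high and low RFI pigs of the same litter. Of the 38 genes 31 were tested, since CYP19A1 and CYP2C34 were too dim and CYP2C33, CYP2C49, CYP11A1, CYP21A2 and GSTA1 exceeded the bound on the SD in both groups. No member passed the adjustment (smallest adjusted p = 0.980, limma), and 0% of 23140 probesets did. At an unadjusted p under 0.05 there were 3 members or 9.68%, against 4.48% of all probesets. A positive difference, meaning higher in high feed efficiency, was measured for 20 of the 31, and 35.5% were below 0 against 48.9% of all probesets, with a median difference of 0.04 against 0.0035. The 95% intervals of the members lay within -0.97 and 1.09. Within these, the interval of CYP3A29 was -0.48 to 0.52, that of GSTO1 was -0.23 to 0.22 and that of GSTK1 was -0.12 to 0.27.

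Aromatase CYP19A2, on chromosome 1 from 120652172 to 120695899, had the smallest p. Its values ranged from 1.40 over a median of 2.26 to 3.45 in the high and from 1.12 over 1.83 to 2.21 in the low efficiency group, so the groups overlapped although the 2 brightest pigs were both of high efficiency. The level was 2.30 ± 0.57 (SD, n = 10) and 1.78 ± 0.39 (SD, n = 10), and the high-efficiency pig was higher in 8 of 10 pairs of the same sow and sex (log2 difference 0.52 ± 0.18 SE, unadjusted limma p = 0.0086, adjusted p = 0.980). The limma model of feed efficiency held sow but neither sex nor the pair, so its p is not that of a paired comparison. The second probeset of CYP19A2, of similar brightness, gave 0.015 ± 0.27.

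Both other genes of this count had lower means in high feed efficiency. CYP2D25, a vitamin D hydroxylase of pigs on chromosome 5 from 6539021 to 6543643, ranged from 4.69 over a median of 5.34 to 6.06 in the high and from 4.94 over 5.84 to 6.08 in the low group. Within pairs of the same sow and sex, 2 of 10 high-efficiency pigs were above their partner (log2 difference -0.42 ± 0.16 SE, unadjusted limma p = 0.0185, adjusted p = 0.980). CYP24A1, which inactivates vitamin D and lies on chromosome 17 from 55110546 to 55130328, ranged from 2.68 over 3.10 to 3.997 in the high and from 2.74 over 3.99 to 4.63 in the low group, with 2 of 10 above their partner (-0.51 ± 0.22, unadjusted limma p = 0.0343, adjusted p = 0.980). Both groups overlapped in either gene, and a second CYP24A1 probeset gave 0.03 ± 0.10.

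The remaining named genes of this comparison had intervals that included 0. Higher means in high feed efficiency were found for CYP1A1 (log2 difference 0.28 ± 0.18 SE), CYP2A19 (0.27 ± 0.17), CYP27A1 (0.22 ± 0.15) and CYP4A24 (0.43 ± 0.31). Lower means were found for CYP39A1, an oxysterol hydroxylase (-0.14 ± 0.10), for the embryonic aromatase CYP19A3 (-0.18 ± 0.12) and for CYP4V2 (-0.12 ± 0.20). Further probesets had the opposite sign for CYP1A1 (-0.15 ± 0.13), CYP4A24 (-0.18 ± 0.10) and CYP4V2 (0.04 ± 0.23 and 0.015 ± 0.24), and the same sign for CYP27A1 (0.13 ± 0.16) and CYP19A3 (-0.36 ± 0.17). The 6 tested GST genes differed by -0.0048 to 0.31 and the 3 SULT genes by -0.01 to 0.21, and 0 of them had an unadjusted p under 0.05. Without the bound on the SD, differences were 0.66 ± 0.40 for CYP11A1, which opens steroid synthesis from cholesterol, 0.41 ± 0.55 for GSTA1, -0.34 ± 0.45 for CYP21A2, 0.23 ± 0.59 for CYP2C33 and 0.05 ± 0.38 for CYP2C49. Of the 39 tested genes of the wider system 1 had an unadjusted p under 0.05, the quinone reductase NQO1 (0.35 ± 0.14, adjusted p = 0.980).

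**Figure D4:**
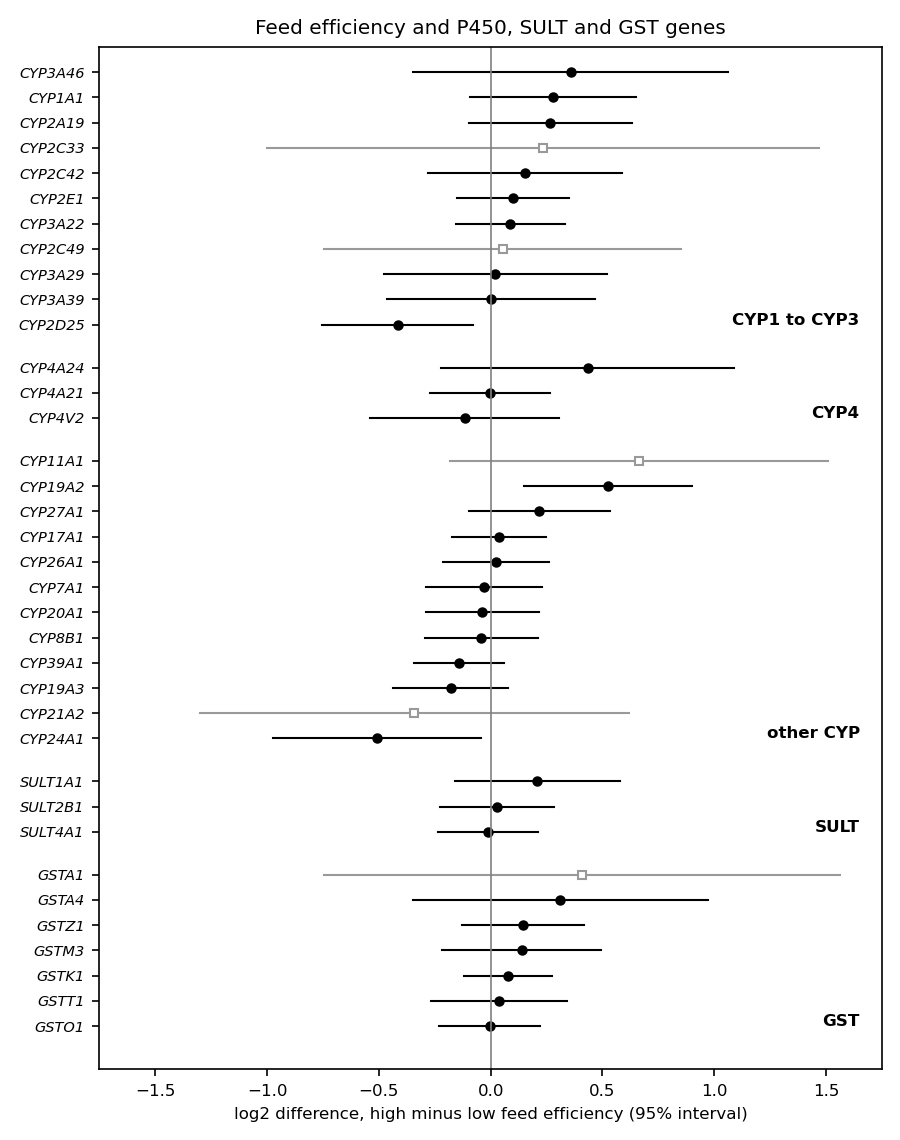
Log2 difference between high and low feed efficiency (x axis, positive when higher in high feed efficiency) with its 95% interval from limma, for 31 tested members (filled circles) and 5 members fitted without the bound on the SD (open grey squares), grouped by family on the y axis. The intervals of CYP19A2, CYP2D25 and CYP24A1 leave out 0, and no member passed the adjustment.

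Male pigs were compared with female pigs in a model that also held sow and efficiency class. At an adjusted p under 0.05, 0 of 36 members and 0% of 23837 probesets were called (limma). With an unadjusted p under 0.05 there were 4 of 36 members, all higher in males, against 4.29% of all probesets. The retinoic acid hydroxylase CYP26A1 was measured from 3.26 over a median of 3.47 to 3.82 in males and from 2.91 over 3.23 to 3.53 in females, and it was higher in the male in 9 of 10 pairs of the same sow and efficiency class (log2 difference 0.27 ± 0.09 SE). CYP2C49 ranged from 2.58 over 3.65 to 4.36 in males and from 1.74 over 3.04 to 4.62 in females (0.75 ± 0.34, higher in the male in 7 of 10 pairs). CYP3A39 (0.47 ± 0.20) and CYP7A1 (0.24 ± 0.11) completed this group, and the values of both sexes overlapped in all of these genes. A second probeset of CYP3A39 gave 0.14 ± 0.15. The CYP3A39 probeset used is dim (mean 1.97), and the brighter one of CYP3A46 (6.30), assigned to the same RefSeq gene, gave -0.14 ± 0.35. The second CYP7A1 probeset, also dim, correlated with the one used at r = -0.06 across pigs. The members with the smallest p among those lower in males were CYP2D25 (-0.28 ± 0.15), CYP19A3 (-0.18 ± 0.12) and CYP4V2 (-0.28 ± 0.20), and a second CYP19A3 probeset had the opposite sign (0.36 ± 0.15). All of these had an adjusted p of 0.9999. Among 40 genes of the wider system 1 had an unadjusted p under 0.05, the efflux transporter ABCC4 (-0.31 ± 0.10).

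Whether the difference of feed efficiency depended on sex was tested by the interaction, given here as the difference in males minus that in females. No member passed the adjustment among 31 (0% of 23140 probesets, smallest adjusted p of the members 0.999, limma). At an unadjusted p under 0.05 there were 3 members or 9.68%, against 4.11% of all probesets. For CYP2C42 the interaction was 1.12 ± 0.33 (SE). High-efficiency males were at 3.72, 4.27, 2.92, 4.45 and 2.51 in the order of the sows 1406, 1410, 1411, 1417 and 1435, and their low-efficiency brothers at 2.76, 3.31, 2.68, 2.87 and 2.71. High-efficiency females were at 3.30, 3.15, 3.02, 3.29 and 2.70, and their low-efficiency sisters at 4.06, 3.58, 2.70, 4.32 and 2.81. The high-efficiency pig was thus higher in 4 of 5 male pairs and in 1 of 5 female pairs. A second CYP2C42 probeset gave 0.64 ± 0.55. The interaction was 0.63 ± 0.23 for GSTZ1, where the high-efficiency pig was higher in 5 of 5 male and 3 of 5 female pairs, and 0.60 ± 0.28 for CYP27A1, with 4 of 5 and 2 of 5 pairs. The second GSTZ1 probeset gave 0.19 ± 0.31. A second CYP27A1 probeset, with a mean of 5.04, correlated with the one used at only r = 0.23 across pigs. The smallest p-values of the opposite direction belonged to CYP7A1 (-0.31 ± 0.22) and CYP4A24 (-0.73 ± 0.63), whose second probeset gave 0.03 ± 0.21.

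CYP21A2, on chromosome 7 from 24086138 to 24089364, was left out of that test because of its SD, and it is named here after its values were seen. In the females it was at 5.83, 5.76, 5.36, 5.45 and 5.36 in high and at 5.49, 4.60, 4.11, 4.74 and 3.95 in low feed efficiency, in the same order of sows. In the males it was at 2.80, 3.22, 5.17, 4.66 and 4.11 in high and at 6.22, 5.73, 3.94, 6.10 and 6.26 in low feed efficiency. The high-efficiency pig was therefore higher in 5 of 5 female pairs and lower in 4 of 5 male pairs, with the litter of 1411 as the exception. Fitted without the bound on the SD the interaction was -2.63 ± 0.68 (SE, 95% interval -4.08 to -1.18, unadjusted limma p = 0.0015, adjusted p = 0.999), the 18th smallest p of 23837 probesets. Because the gene was picked after these same values were seen, this p and rank are no test of the pattern. The values also include the pairs of pigs with identical values. The 3 dimmer probesets of CYP21A2 had the same sign with much smaller values, which were -0.17 ± 0.27, -0.35 ± 0.27 and -0.12 ± 0.31. Across pigs the correlation of the probeset used with these lay between -0.30 and 0.33.

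**Figure D5:**
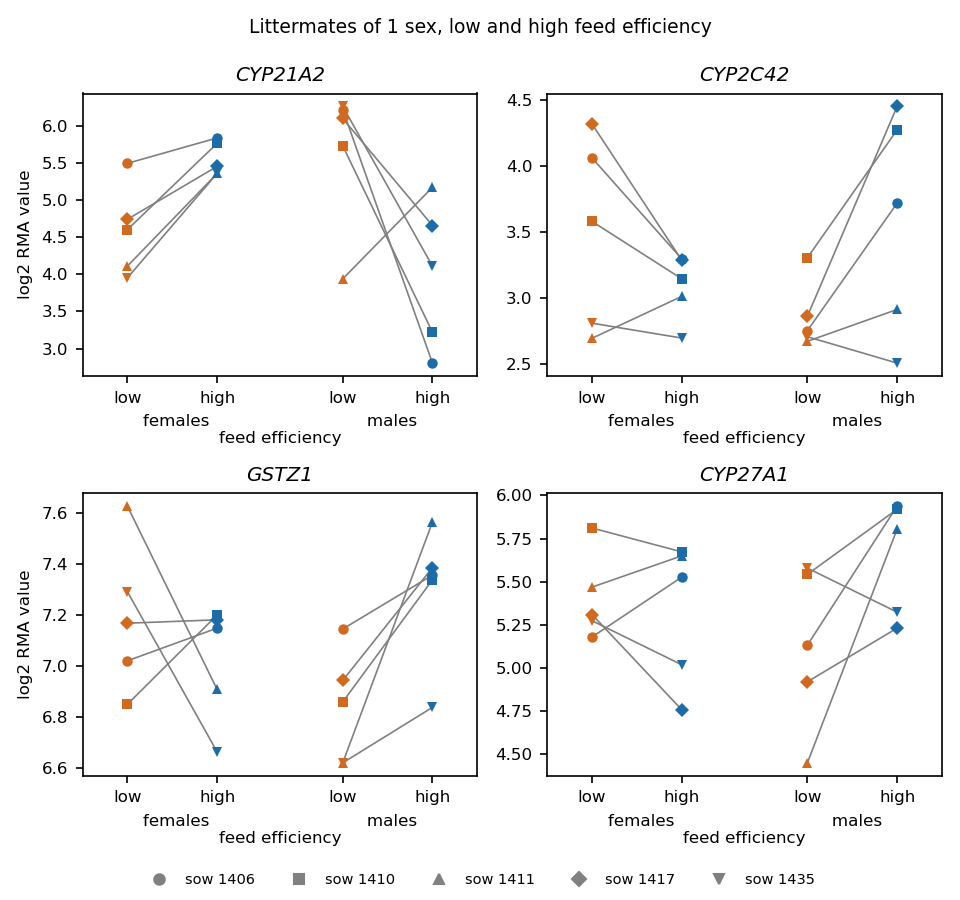
Log2 RMA values (y axis) of the low- and high-efficiency pig of a sow and sex (x axis), joined by a line, for CYP21A2 and the 3 members with an unadjusted interaction p under 0.05, with 1 symbol per sow. Lines of CYP21A2 rise in 5 of 5 female pairs and fall in 4 of 5 male pairs.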

How the data were processed

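The log2 values were deposited by the authors after a robust multichip average (background correction, quantile normalisation between arrays, summary per probeset) of Affymetrix porcine snowball arrays, with probes assigned through a custom layout on Sscrofa11.1. The submitters' processing notes name GCOS 1.1.1. Quantile normalisation removes differences common to a whole array and the log2 differences of dim probesets are compressed. Symbols came from the platform annotation, which is older than that layout, and positions from RefSeq for Sscrofa11.1 (38 of 38 members matched). All columns were matched to a pig (0 left over).

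Models were fitted to all probesets with limma (version 3.58.1) in R (version 4.3.3). Litter was tested by a moderated F test and by contrasts of each litter with the mean of the other litters (feed efficiency and sex in the model), feed efficiency with sow, sex with sow and feed efficiency, and the interaction with all of these. Probesets under the 5% quantile of means (1.62) were left out, which left 23837, and for feed efficiency and interaction also those whose SD exceeded its 95% quantile in each efficiency group, which left 23140. Two-sided tests were used, with Benjamini-Hochberg adjustment over all probesets and calls at an adjusted p under 0.05. The pigs are separate animals. Permutation tests of correlations used 100000 resamples, shuffled over all pigs without regard to litter. Fits were tested on simulated data.

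Named are the 8 members with the smallest p for litter, 5 per direction for feed efficiency, 3 for sex and 2 for the interaction, the 3 brightest of each family, and members whose probesets differ in sign. Members, gene lists and this rule were chosen with earlier results of these data known. Alternatives concerned filters, scaling, probeset choice, variance prior, covariates and omitted pigs or litters. Figures were drawn with matplotlib (version 3.10.9).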

Additional observations from a re-analysis of the deposited data

Results flagged for a closer look

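Of 72 groups of pigs examined for the named genes, 3 held a pig that lay far from the others of its group, about as many as chance gives at 1 in 20. The high-efficiency female of sow 1435 was at 2.28 for CYP19A2, where her 3 littermates were between 1.40 and 1.52. A pig of high feed efficiency was at 4.20 for CYP1A1 and the lowest of its group of 10 at 2.71. A pig of low feed efficiency was at 2.68 for CYP39A1, where the median of its group was 2.10. None of these genes passed the adjustment in any comparison.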

How the results depend on the processing

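No member was called at an adjusted p under 0.05 for litter, litter contrasts, feed efficiency, sex or interaction under any alternative tried, leaving out each pig in turn included. Counts at an unadjusted p moved in some of them. For litter, 5 members became 3 with the pig's number, which runs partly with the litters, as a covariate, and 3 to 8 without 1 pig each. There were 3 without the high-efficiency male of 1406, the high-efficiency male of 1411 or the low-efficiency male of 1435, and 8 without the low-efficiency male of 1411. With probesets under the median level removed, 12 instead of 20 members were counted over the litter contrasts, 13 of 18 (before 27 of 36) were higher in 1406, 14 of 18 (before 30 of 36) were lower in 1435, 1 instead of 3 was counted for feed efficiency and 0 instead of 4 for sex. For sex the count was 2 with the mean of all probesets of a gene, 1 with the pair of sow and efficiency class as a block, 2 without litter 1410 or 1417, 1 without litter 1435 and 1 to 4 without 1 pig each, with 10 of these 20 fits at 1 or 2. The interaction gave 1 instead of 3 without litter 1411. CYP19A3 reversed for sex, from -0.18 to 0.089, with the mean of all probesets. Without the bound on the SD, an alternative chosen after seeing the data, 4 members had an unadjusted p under 0.05 for the interaction. The cause of these moves was not tested. The level of the probesets is a further limit, as 20 of 38 members lay below the median of all probesets.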
